A study of Mus musculus with 2 samples.

Results

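The angiopoietins and their Tie receptors were followed in mouse neonatal ventricular cardiomyocytes (mNVCM) on 2 Affymetrix mouse arrays. The 6 members were *Angpt1*, *Angpt2*, *Tek*, *Tie1*, *Angptl2* and *Angptl4*, and a gene was measured where a probe set carried its symbol and no other in the array annotation. This gave 8 probe sets of 5 members, of 18193 genes in all. *Angptl2* had no such probe set and was not analysed here. The members were chosen by a family name and with their log2 ratios on these same arrays known, so the values below describe the arrays and none of them is tested. The name fits them in part, since *Angptl4* belongs to the related angiopoietin-like proteins, which do not act through Tie2.

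Both arrays held RNA of cells from C57BL6/J hearts at 2 days after birth, cultured for 48 to 72 h and then kept for 1 h in medium with 0.5% serum. One culture was pre-incubated for 3 h with hAFS-CMHypo, the medium conditioned by human amniotic fluid stem cells under hypoxia, and then received 1 μM doxorubicin (Dox), an anthracycline that damages DNA. The other received 1 μM Dox without hAFS-CMHypo, and a pre-treatment time of 3 h is listed for it too. The labels of the arrays give 6 h of Dox for hAFS-CMHypo + Dox and 21 h for Dox, whereas the study's methods give the shorter time for gene expression in general. If the labels hold, hAFS-CMHypo and hours of Dox cannot be told apart in any difference below. The hAFS came from pooled amniotic fluid samples, and the mouse cells were a primary culture, with no sorting step given after digestion. With 1 array per condition there is no error between cultures, no p-value and no replicate check, and precision is limited by that number.

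Angiopoietin 1 is made by cells around vessels and, in the developing heart, by the myocardium, and it activates the receptor Tie2 on endothelial cells, which keeps vessels quiet and tight. Angiopoietin 2 is made mostly by endothelial cells themselves, is stored for rapid release, and in many settings competes with angiopoietin 1 at the same receptor. *Tek* codes for Tie2, and *Tie1* for a second receptor of the family that binds angiopoietins poorly and modifies the signal of Tie2. *Angptl4* codes for a secreted inhibitor of lipoprotein lipase and is a target of PPAR transcription factors, of hypoxia and of glucocorticoids.

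Levels are given as the deposited log2 signal, and differences as the log2 ratio of hAFS-CMHypo + Dox over Dox, in which 1 unit is a 2-fold difference, the threshold of the study. Where a gene had several probe sets, the one brightest on average over both arrays stands for the gene, and all other probe sets of the members are given beside it. Over all values the median signal was 5.10 and the 25th percentile 3.80, and a signal below the latter is not shown to be above background. Within a gene, log2 ratios varied from one probe set to another with an SD of 0.20, taken over 5166 genes and over probe sets with a mean at or above the median. This within-gene SD holds no variation between cultures. Signals of different probe sets are not set against each other, because probes bind with different strength.

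Of the 5 measured members, *Angpt2* and *Angptl4* were at least 2-fold higher with hAFS-CMHypo + Dox, *Angpt1* was at least 2-fold lower, and the receptor genes *Tek* and *Tie1* were near equal on both arrays. Among all genes, 0.506% were higher and 0.214% were lower by 2-fold or more. The members were taken with these ratios in view, so nothing is read from their share. Of their 8 probe sets, 2 were higher and 2 were lower by 2-fold or more, where 0.355% and 0.222% of all probe sets without the array's controls were.

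**Figure D1:**
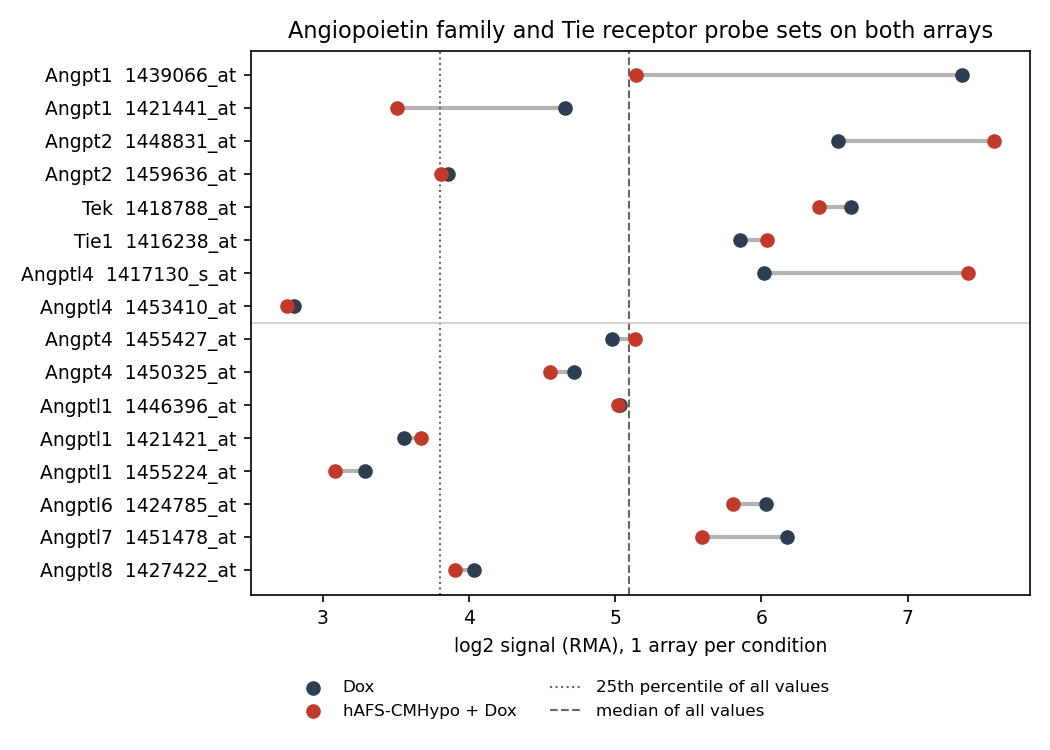
Log2 signal (x axis) of each probe set (rows) for Dox (dark points) and for hAFS-CMHypo + Dox (red points), with 1 array each and the members above the thin line and their relatives below it. Both *Angpt1* probe sets have the red point to the left, and 1 probe set each of *Angpt2* and *Angptl4* has it far to the right, while the other probe set of each stays near or below the 25th percentile of all values (3.80).

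*Angpt1*, the ligand that activates Tie2, was lower with hAFS-CMHypo + Dox at both of its probe sets. At 1439066_at the signal was 5.14 for hAFS-CMHypo + Dox and 7.38 for Dox. The Dox signal thus lay at percentile 73.9 of all probe sets on that array, and the signal with hAFS-CMHypo + Dox at percentile 50.7 on its own. The log2 ratio was thus -2.23, or 4.71-fold lower, and ranked 1 from the bottom both among 18193 genes and among 45037 probe sets.

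The second *Angpt1* probe set, 1421441_at, was dimmer on both arrays. Its signal was 3.51 for hAFS-CMHypo + Dox and 4.66 for Dox, giving a log2 ratio of -1.15. The lower of these signals was under the 25th percentile and may be background, so the direction was that of 1439066_at but the size is uncertain. As a description of how far ratios spread at a given signal, the middle 95% of the 1000 probe sets nearest in mean signal ran from -0.57 to 0.69 around 1439066_at, and the *Angpt1* value there lay outside this range.

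*Angpt2*, the ligand that often opposes angiopoietin 1, was higher with hAFS-CMHypo + Dox at 1 of its 2 probe sets. At 1448831_at the signal was 7.59 for hAFS-CMHypo + Dox and 6.52 for Dox, giving a log2 ratio of 1.07, or 2.10-fold higher. The ratio ranked 80 from the top among genes and lay just past the 2-fold threshold. Around it, the middle 95% of the 1000 probe sets nearest in mean signal ran from -0.61 to 0.58.

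The other *Angpt2* probe set, 1459636_at, had 3.81 for hAFS-CMHypo + Dox and 3.85 for Dox, giving a log2 ratio of -0.046. It lay at percentiles 25.2 and 26.2 of the arrays, so the bright probe set and the dim one did not give the same result. The higher value of *Angpt2* therefore rests on 1 probe set, and the mean of both would give 0.51.

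Set against each other, the ligands differed in direction. *Angpt2* exceeded *Angpt1* by 3.30 in log2 ratio at the probe sets used for the genes, a 9.88-fold difference between their changes and not between their levels. Over the 4 pairs of an *Angpt1* and an *Angpt2* probe set, this difference ran from 1.10 to 3.30. All pairs but the one of 3.30 hold a probe set with a signal near or under the 25th percentile, so the lower end of the range is uncertain. The pairs share probe sets and come from the same 2 arrays, and without the bright *Angpt2* probe set it rests on *Angpt1* alone.

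**Figure D2:**
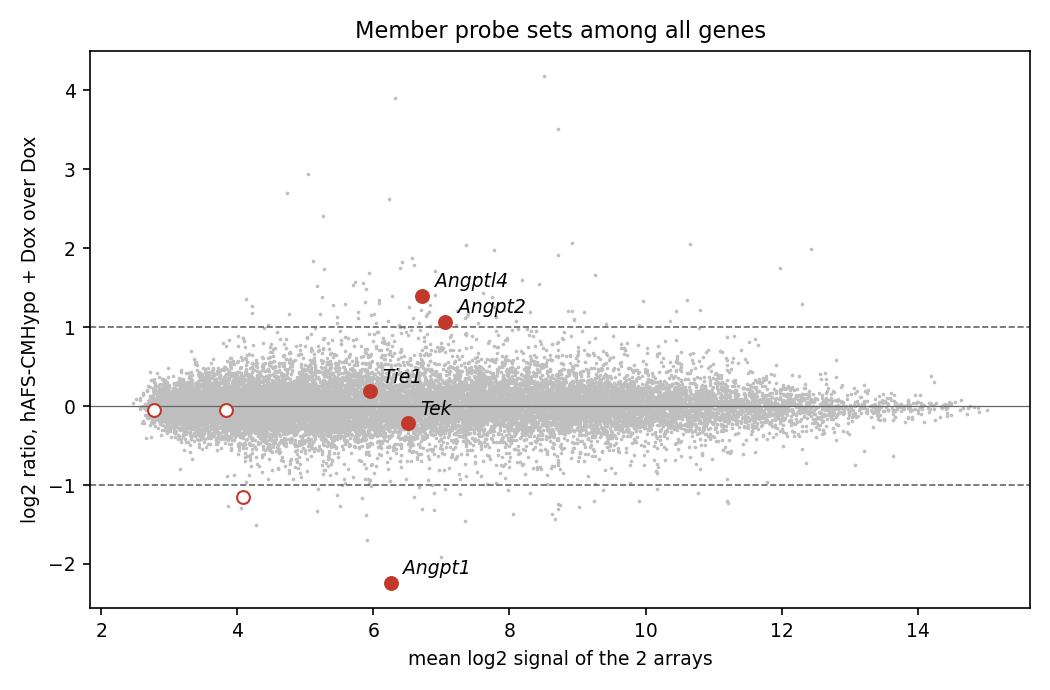
Log2 ratio of hAFS-CMHypo + Dox over Dox (y axis) against the mean log2 signal of the 2 arrays (x axis), with 1 grey point per gene. Filled red points are the members at the probe set used for the gene, open red points are their other probe sets, and dashed lines mark 2-fold. *Angpt1* is the lowest point of the plot at -2.23, and *Tek* and *Tie1* lie within the cloud around 0.

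*Tek*, the gene of Tie2, had a signal of 6.40 for hAFS-CMHypo + Dox and 6.61 for Dox at its only probe set. The log2 ratio was -0.22, close to the within-gene SD, and ranked 15411 of 18193 from the top. *Tie1* had 6.04 for hAFS-CMHypo + Dox and 5.85 for Dox, giving a log2 ratio of 0.19, at rank 3662. The 2 receptor genes therefore differed in sign, each by about 1 SD. Around them the middle 95% of the 1000 nearest probe sets ran from -0.66 to 0.69 for *Tek* and from -0.70 to 0.68 for *Tie1*, so neither stood out from other genes of like signal. A difference of this size is not detectable with 1 array per condition, which is not to say that the receptor genes were equal.

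*Angptl4*, the lipoprotein lipase inhibitor, was higher with hAFS-CMHypo + Dox at its brighter probe set. At 1417130_s_at the signal was 7.42 for hAFS-CMHypo + Dox and 6.02 for Dox, giving a log2 ratio of 1.40, or 2.63-fold higher, at rank 33 among genes. This was the largest positive log2 ratio among the members, and the middle 95% of the 1000 nearest probe sets ran from -0.61 to 0.67. The suffix _s_at marks a probe set whose probes can match more than 1 transcript or gene. The other probe set, 1453410_at, had 2.75 for hAFS-CMHypo + Dox and 2.80 for Dox, giving a log2 ratio of -0.050, and lay at percentiles 1.24 and 1.92, among the dimmest of the arrays. No direction is read from it, since neither signal is shown to be above background. The 2-fold difference therefore rests on 1 probe set of the less specific type.

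Of the other angiopoietin and angiopoietin-like genes, 5 were analysed, with 8 probe sets. None of these probe sets was 2-fold higher or lower, and with 0.355% and 0.222% of all probe sets past 2-fold a count of 0 among 8 is near the background. The median log2 ratio of the genes was -0.13, against 0.0058 over all genes. *Angptl7*, first described in the eye, had the largest, with 5.59 for hAFS-CMHypo + Dox and 6.18 for Dox, giving a log2 ratio of -0.58. *Angptl6*, a circulating factor linked to energy use, had 5.80 and 6.03 (-0.23). *Angpt4*, another ligand of Tie2, had 5.13 and 4.98 (0.16) at one probe set and 4.56 and 4.72 (-0.16) at the other, so its sign depends on the probe set. *Angptl1* had -0.0080 at the probe set used and from -0.20 to 0.12 over its 3 probe sets. Both ends of that range came from probe sets under the 25th percentile on both arrays. *Angptl8*, which acts with other angiopoietin-like proteins on lipoprotein lipase, had 3.90 and 4.04 (-0.13), close to the 25th percentile of all values.

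Genes that carry the signal of the Tie receptors were then described. Of 25 listed, 23 were measured, none was 2-fold higher or lower, 5 exceeded the within-gene SD upwards and 4 downwards, and the median log2 ratio was 0.12. Among all genes, 18.5% were higher and 16.3% were lower beyond that SD, and every count of this kind below is to be read against these shares. By 2-fold or more, 0.506% of all genes were higher and 0.214% lower. A list of this size with no gene past 2-fold is therefore near the background, here and below. *Itgb3*, an integrin subunit of the receptor for vitronectin, had the largest ratio, with 6.72 for hAFS-CMHypo + Dox and 5.82 for Dox (0.90, and 0.44 at its other probe set). *Grb14*, an adaptor that binds receptor tyrosine kinases, had 9.39 and 10.14 (-0.75). Its other probe set had -0.26 at signals of 2.70 and 2.96, under the 25th percentile. *Dok2*, an adaptor recruited by active Tie2, had 6.99 and 6.53 (0.46). *Ptprb*, the phosphatase that removes phosphate from Tie2, had -0.29, with -0.62 to 0.14 over its 3 probe sets. The upper end of that range came from signals of 3.40 and 3.26, under the 25th percentile. *Svep1*, a matrix protein that binds Tie1, had 0.14.

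Transcription factors tied to *Angpt2* or to the Tie genes were likewise under 2-fold, which is near the background of 0.506% and 0.214% of all genes. Of 20 listed, 19 were measured, with a median log2 ratio of 0.030, 5 higher and 4 lower beyond the within-gene SD, against 18.5% and 16.3% of all genes. *Foxo1*, which drives *Angpt2* in endothelial cells and is held back by Tie2 signalling, had 8.86 for hAFS-CMHypo + Dox and 8.80 for Dox, giving a log2 ratio of 0.053 (-0.26 to 0.11 over 4 probe sets). *Foxo3* had -0.099. *Foxc2*, a forkhead factor of vessels, had 8.42 and 7.80 (0.61), and *Foxc1* had 0.20 (-0.32 at its other probe set). *Fli1*, an ETS factor of endothelial and blood cells, had 6.65 and 7.15 (-0.50, and -0.40 at its other probe set), and *Elf3*, an epithelial ETS factor, had 5.60 and 6.03 (-0.44).

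Around *Angptl4*, its enzyme and regulators were described in 3 lists, in which no gene was 2-fold higher or lower, again near the background. In the first, of lipase genes, their partners and nuclear receptors, 12 of 13 were measured, with a median log2 ratio of -0.11, 1 higher and 4 lower beyond the within-gene SD. *Lpl*, which codes for lipoprotein lipase itself, had 14.03 for hAFS-CMHypo + Dox and 13.98 for Dox (0.049), near the top of both arrays. *Lipg*, the endothelial lipase, had -0.073 at a signal below the median. *Ppard*, a nuclear receptor that induces *Angptl4*, had 6.63 and 5.96 (0.68, and 0.23 at its other probe set). *Vldlr*, a lipoprotein receptor, had 9.95 and 10.63 (-0.69), and *Fabp4*, a fatty acid carrier, had 8.66 and 9.19 (-0.53, with -1.21 to 0.048 over 4 probe sets).

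The second list held targets of PPAR factors. Of 17 listed 15 were measured, with a median of -0.079, 2 higher and 3 lower beyond the within-gene SD. The largest differences were those of *Acot1* (0.63) and *Acot2* (-0.40), thioesterases of fatty acyl-CoA with opposite signs, and of *Pdk4* (0.56), a kinase that restrains pyruvate oxidation. *Cpt1a*, which lets long fatty acids into mitochondria, had 0.084.

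The last of these lists held 18 genes that rise in hypoxia, all measured, with a median of 0.017, 3 higher and 6 lower beyond the within-gene SD. *Ndrg1* had 8.74 for hAFS-CMHypo + Dox and 7.84 for Dox (0.90, with -0.030 to 0.90 over 5 probe sets). *Hk2*, a hexokinase, had 0.71, and *Egln3*, an oxygen sensor, had 0.65. *Vegfa*, the main growth factor of vessels, had -0.26, *Adm*, which codes for adrenomedullin, -0.35, and the glucose transporter gene *Slc2a1* 0.13. The members of this list did not share a direction.

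**Figure D3:**
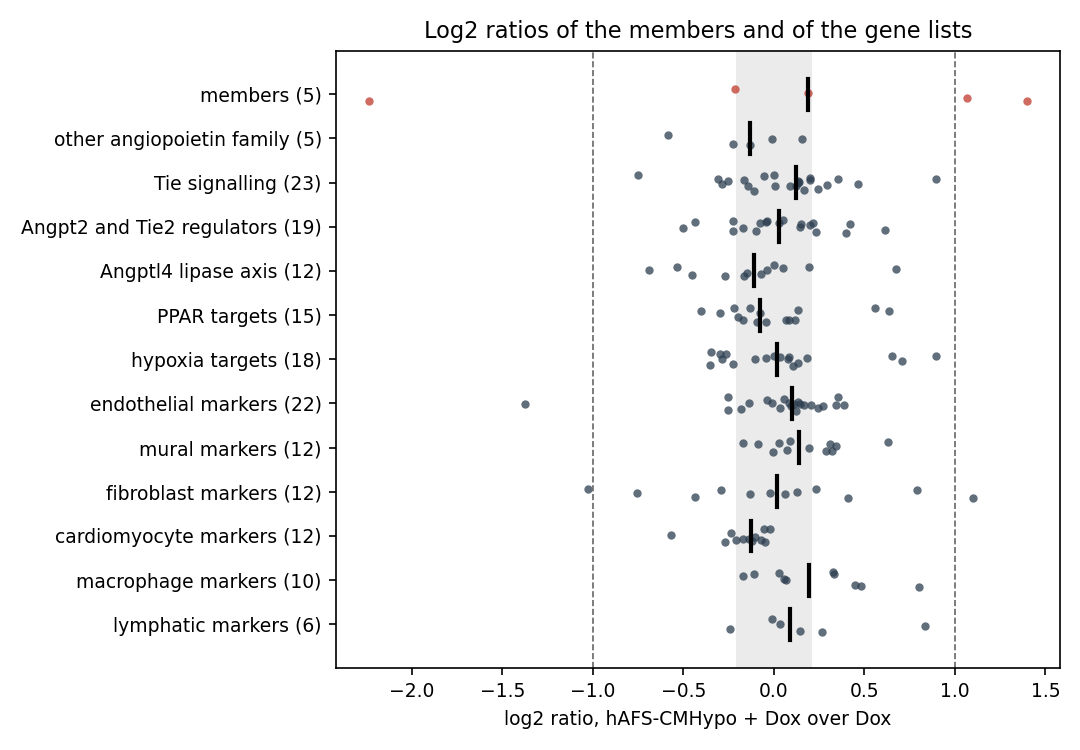
Log2 ratio of hAFS-CMHypo + Dox over Dox (x axis) of each measured gene (points) in the member set and in 12 gene lists (rows, with the number of measured genes in brackets; points are spread vertically for clarity only). Black bars are medians, the grey band is the within-gene SD (0.20) on either side of 0, and dashed lines mark 2-fold. The list medians run from -0.13 to 0.20, and the median of the 5 measured members is 0.19.

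Marker genes of the cell types that make or receive angiopoietins were set beside the members. In RNA from a whole culture, fewer cells of a type and less RNA per cell cannot be told apart. All 22 endothelial markers were measured, 21 of them with the higher array at or above the median signal. Their mean log2 signal was 7.27 for hAFS-CMHypo + Dox and 7.24 for Dox, and their median log2 ratio was 0.10, with 5 higher and 3 lower beyond the within-gene SD. The defining markers *Pecam1*, *Cdh5* and *Kdr*, a surface adhesion molecule, the cadherin of endothelial junctions and a VEGF receptor, had signals of 7.88, 9.07 and 7.28 for hAFS-CMHypo + Dox. For Dox they had 7.85, 8.93 and 7.46.

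Endothelial transcripts were thus present in a culture labelled as cardiomyocytes, and the ratios of the defining markers (0.032, 0.14 and -0.18) were no larger in size than that of *Tek*. The largest ratio was that of *Clec14a*, an endothelial lectin, with 5.21 for hAFS-CMHypo + Dox and 6.58 for Dox (-1.37). *Clec14a* was the only endothelial marker past 2-fold, where 0.214% of all genes were lower by that much. Its other probe set had -0.12 at signals of 3.17 and 3.29. Both lie under 3.80, the limit given above for background, so no direction is read from that probe set. *Tal1*, an endothelial and blood transcription factor, and *Robo4*, a guidance receptor, had 0.39 and 0.36. The part of endothelial cell content in the *Angpt2* value was not tested.

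Mural cells, which wrap vessels and make angiopoietin 1, were described by 12 markers, all measured. Their mean signal was 8.77 for hAFS-CMHypo + Dox and 8.60 for Dox, with a median log2 ratio of 0.14, 5 higher and none lower beyond the within-gene SD, and none past 2-fold. Of all genes, 18.5% were higher and 16.3% lower beyond that SD, and no difference from them is read from 12 genes without a test. *Cspg4*, a pericyte proteoglycan, had 8.61 and 7.98 (0.63), *Mcam* and the smooth muscle gene *Cnn1* had 0.34 and 0.32, and the defining markers *Pdgfrb* and *Rgs5* had 0.31 and 0.087. *Pdgfrb* had -0.028 at its other probe set and *Rgs5* ran from -0.35 to 0.20 over 4 probe sets. *Abcc9*, a potassium channel subunit of mural cells and heart muscle, had -0.17 at the probe set used and -0.64 and -0.44 at its other probe sets. The part of mural cell content in the *Angpt1* value was not tested.

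Fibroblast markers, 12 of 12 measured, held values in both directions. Their mean signal was 10.02 for hAFS-CMHypo + Dox and 10.01 for Dox, with a median log2 ratio of 0.019 and 4 higher and 4 lower beyond the within-gene SD. By 2-fold or more, 1 marker was higher and 1 lower, where 0.506% and 0.214% of all genes were, and nothing is read from 12 genes without a test. *Lum*, a matrix proteoglycan, was 2-fold higher (1.10). *Tcf21*, a transcription factor of cardiac fibroblasts, was 2-fold lower, with 6.15 for hAFS-CMHypo + Dox and 7.18 for Dox (-1.03, and 0.18 at its other probe set). The defining markers *Pdgfra*, *Dcn* and *Col1a1* had 0.79, 0.41 and -0.29, of which *Pdgfra* had -0.050 and *Col1a1* 0.22 at another probe set. The part of fibroblast content in the *Angpt1* value was not tested.

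The cardiomyocyte label fitted the arrays. The defining markers *Myh6*, *Tnnt2* and *Actc1*, genes of the contractile apparatus, had signals of 14.37, 14.73 and 14.86 for hAFS-CMHypo + Dox and of 14.49, 14.75 and 14.93 for Dox, near the top of the scale. All 12 cardiomyocyte markers were below 0 in log2 ratio, with a median of -0.13 against 0.0058 over all genes. Most of these differences were small. Of the 12, 8 lay within the within-gene SD and 4 were lower beyond it, where 16.3% of all genes were. As the median over all genes was just above 0, no more genes lay below 0 than above it. Their exact share was not counted, and no loss of cardiomyocyte RNA is read from the signs without a test. *Pln*, a regulator of the calcium pump, had -0.57 (-0.87 to -0.57 over 3 probe sets), *Myh7*, a myosin heavy chain, -0.27, and *Ttn*, the gene of titin, -0.23 (-0.94 to 0.0070 over 6 probe sets). The part of cardiomyocyte content in the *Angpt1* value was not tested.

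Macrophage markers, 10 of 10 measured, had a mean signal of 7.72 for hAFS-CMHypo + Dox and 7.49 for Dox. Their median log2 ratio was 0.20, with 5 higher and none lower beyond the within-gene SD, where 18.5% and 16.3% of all genes were. *Cd14*, a receptor for bacterial lipid, had 0.80, *Ptprc*, the pan-leukocyte marker, 0.48 (-0.088 at its other probe set), and *Mrc1*, the mannose receptor, 0.45. The other defining markers *Csf1r* and *Adgre1* had 0.33 each, and *Csf1r* ran from -0.14 to 0.33 over its 3 probe sets. The remaining 5 markers lay within the within-gene SD, and of these *Lyz2* (-0.11) and *C1qa* (-0.17) were below 0. No difference from all genes is read from 10 markers without a test.

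Of 6 lymphatic markers, all measured, 2 had the higher array at or above the median signal. *Pdpn*, which other cells of the heart also express, had 10.86 for hAFS-CMHypo + Dox and 10.03 for Dox (0.84), and *Flt4*, a VEGF receptor, had 0.15 (-0.21 at its other probe set). *Prox1* and *Lyve1*, the other defining markers, had signals of 4.56 and 4.10 for hAFS-CMHypo + Dox and of 4.53 and 3.83 for Dox, below the median of all values. The median log2 ratio of this list was 0.090.

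The genes with log2 ratios nearest to those of the ligands were taken from genes with the higher array at or above the median signal, with likeness measured as the difference of log2 ratios over the 2 arrays. Nearest to *Angpt1* were *Fsd2* at -1.91, *Gprasp2* at -1.70 and *Rnf207* at -1.46 (-0.46 at its other probe set). Nearest to *Angpt2* were *Itgb2*, a leukocyte integrin subunit, at 1.08, *Ankrd10* at 1.08 and *Igtp*, an interferon-induced GTPase, at 1.08, each within 0.012 of *Angpt2*. *Ankrd10* went as low as -0.29 over its 6 probe sets. With 2 arrays, likeness says only that a gene had a ratio of like size.

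**Figure D4:**
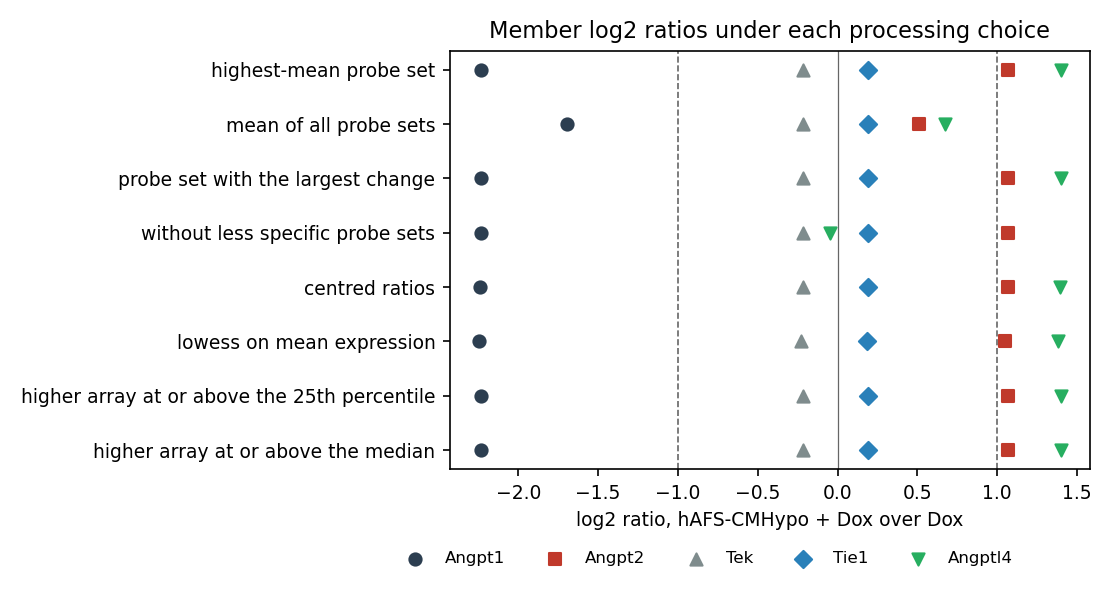
Log2 ratio of hAFS-CMHypo + Dox over Dox (x axis) of the 5 measured members (symbols) with the brightest probe set of each gene (top row) and under 7 other processing choices (rows). Dashed lines mark 2-fold. *Angpt1* stays below -1 in every row, *Angpt2* and *Angptl4* fall under 2-fold with the mean of all probe sets, and *Angptl4* lies at -0.050 without the less specific probe sets, where only its dim probe set is left.

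Across the 7 alternatives for a gene value, *Angpt1* ran from -2.25 to -1.69 and so kept its direction and its side of the 2-fold threshold. *Angpt2* ran from 0.51 to 1.07, *Tek* from -0.23 to -0.22 and *Tie1* from 0.18 to 0.19. *Angptl4* had the widest range, from -0.050 to 1.40, and the lower end comes from the dim 1453410_at alone. The receptors have 1 probe set each, so a choice between probe sets could not move them.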

How the data were processed

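Gene expression was measured on 1 array for each condition. The authors summarised each probe set to 1 log2 value by RMA with quantile normalization. The deposited log2 values were analysed without further scaling, and RMA is also named in the submitters' processing notes. Which software and probe set definitions were used is not given in the sources, and the log2 scale was read from the range of the values (2.37 to 15.05). Symbols came from a 2016 platform annotation, updated through the Entrez ID with RefSeq genes of GRCm38.p6 (34741 of 34945 probe sets with 1 gene matched; 64 control probe sets left out). No coordinates are given, because no build is named for the annotation.

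Log2 ratios were computed per probe set and per gene, at the brightest probe set on average. The computation was run on simulated data, in which all probe sets of a changed gene shifted together by 3-fold and large ratios were left out of the noise. That run checks the arithmetic only, since it holds no probe sets of a gene that disagree. The members and lists were chosen with earlier results of these data known. Genes named are all members and their relatives, 3 defining markers per cell type, per list the 3 largest absolute ratios among genes whose higher array reached the median signal, and the 3 genes nearest in ratio to each ligand. *Ptprb*, *Svep1*, *Foxo1*, *Foxo3*, *Foxc1*, *Lpl*, *Lipg*, *Cpt1a*, *Vegfa*, *Adm* and *Slc2a1*, which head their lists, were added after their values were seen. So were *Abcc9*, *Lyz2*, *C1qa*, *Reln* and *Mmrn1*. Alternatives were other rules for the probe set, centring, a lowess fit (span 0.3), filters on signal and thresholds of 1.5-fold and 3-fold. Tools were Python 3.11.15 with pandas 2.3.3 and numpy 2.4.6, lowess from statsmodels 0.14.6, and matplotlib 3.10.9.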

Additional observations from a re-analysis of the deposited data

How the results depend on the processing

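Of 151 values recomputed under an alternative, 138 moved by less than the SD between probe sets or, for counts, stayed within 1.5-fold. Many of the 138 could not move, because a gene had 1 probe set or an alternative picked the same probe set again. The tally is therefore no measure of how robust the values are. With the mean of all probe sets, the log2 ratio was -1.69 for *Angpt1*, 0.51 for *Angpt2* and 0.67 for *Angptl4*, the difference *Angpt2* minus *Angpt1* was 2.20, and 1 member gene was past 2-fold instead of 3. The suffixes _s_at, _x_at and _a_at were grouped here as less specific, a choice of this re-analysis. Without these probe sets, *Angptl4* had -0.050 from a probe set with signals of 2.75 and 2.80, under the 25th percentile. No direction is read from it. At 3-fold, 1 member gene and 1 member probe set were past the threshold. All genes past the threshold numbered 131 at 2-fold, 699 at 1.5-fold, 27 at 3-fold and 198 where the most changed probe set stood for the gene, of which 115 were higher and 83 lower against 92 and 39. The higher share was thus 58.1% instead of 70.2%. List medians moved in 2 of 84 cases, to -0.33 for the *Angptl4* lipase axis with the most changed probe set and to 0.49 for lymphatic markers at or above the median signal, where 2 genes were left. Centring and the lowess fit on mean expression moved no member by as much as the SD. No paired analysis was possible because each condition has 1 array, and no array could be left out. Signals near the 25th percentile or under it limit the ratios of the dimmer *Angpt1*, *Angpt2* and *Angptl4* probe sets.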
